A study of Mus musculus with 12 samples.

Results

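The genes described here are 10 genes that are commonly used as markers of astrocytes and that quiescent neural stem cells also express: Aldoc, Slc1a3, Slc1a2, Aqp4, Gjb6, Glul, Apoe, Clu, Aldh1l1 and Fgfr3. They were chosen by name, and all 10 were found among the 37991 genes of the deposited table and passed the filter on low counts that left 17623 genes for testing. RNA was measured in GFP-positive neural stem cells (NSCs) sorted from the subventricular zone (SVZ) of the adult mouse brain. The mice were C57BL/6, carried CreERT2 knocked into the Gli1 locus together with the RCE reporter, and received tamoxifen at 10 weeks of age in doses of 5 mg, which permanently marked Gli1-expressing cells and their progeny with GFP. Gli1Het mice had 1 intact copy of Gli1, a transcription factor of the Sonic hedgehog pathway, and Gli1Null mice had none in any tissue. Mice were fed regular chow (control) or chow with 0.2% cuprizone, a copper chelator that damages oligodendrocytes, for 3 weeks, and each of the 4 groups had 3 libraries, each from the pooled SVZ of 2 mice, 1 female and 1 male. Because the mark passes to daughter cells, the sort could include progenitors, neuroblasts and astrocytes as well as stem cells. The authors state that, outside the SVZ, mature parenchymal astrocytes also express Gli1.

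Stem cells of the adult SVZ descend from radial glia and keep an astrocyte-like program when they rest. In that state they take up glutamate, couple through gap junctions, carry lipids on apolipoproteins and express receptors for fibroblast growth factors. When they are activated and become transit-amplifying cells and then neuroblasts, many of these astrocytic genes are turned down.

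The libraries held 13752801 to 32468063 counts in genes. The stem cell markers Sox2 and Sox9 were at 350 to 463 CPM (counts scaled to the same library total) and 476 to 875 CPM over all libraries, and all 10 genes described here had reads in each of the 12 libraries. The stem cell markers Nes and Gfap varied more, from 41.4 to 169 CPM and from 55.8 to 1282 CPM. Gli1 itself was at 8.65 to 18.3 CPM in Gli1Het control NSCs and at 0.293 to 0.739 CPM in the 6 Gli1Null libraries. On cuprizone the Gli1Het libraries had 21.5, 0.837 and 3.84 CPM of Gli1, so the library labelled Gli1Het cuprizone replicate 2 lay close to the Gli1Null level, and the main results of the 10 genes between diets are also given without it. The library of Gli1Het control replicate 1 also stood apart for these genes: it was the shallowest of the 12, and all 10 genes lay below their mean in the 6 control libraries, by a median of -0.57 on the log2 scale, while in Gli1Het control replicate 3 all 10 lay above it, by a median of 0.31.

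Levels can be ranked across genes when CPM are divided by the length of the merged exons in kilobases. In the 6 control libraries Apoe was highest at 2103 CPM per kb on average, followed by Clu at 679, and neither range over libraries overlapped with that of the next gene. Slc1a3 at 348 and Aldoc at 301 CPM per kb overlapped, and Slc1a3 was the higher of them in 4 of 6 libraries. Glul followed at 91.3 CPM per kb without overlap on either side. Slc1a2 at 60.7, Gjb6 at 52.6 and Fgfr3 at 49.3 CPM per kb had overlapping ranges, and Aldh1l1 at 25.5 and Aqp4 at 23.0 CPM per kb closed the order, also with overlapping ranges. On cuprizone the first 5 places were held by the same genes in the same order, while Slc1a2, at 65.2 CPM per kb, moved from place 6 to place 8, behind Gjb6 at 78.4 and Fgfr3 at 72.2 CPM per kb. The ranges of Gjb6, Fgfr3 and Slc1a2 overlapped on cuprizone too, while Gjb6 was above Fgfr3 in 6 of 6 of these libraries and Fgfr3 above Slc1a2 in 5 of 6. In the control libraries Slc1a2 was above Gjb6 in 6 of 6 and Gjb6 above Fgfr3 in 4 of 6. Apoe, Slc1a3 and Clu together made up 75.6% to 81.2% of the summed CPM of the 10 genes and Gli1 in every library. Gli1 added no more than 21.5 CPM to these sums.

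The first comparison asked how NSCs of each genotype differed between cuprizone and the control diet. In Gli1Het NSCs 3 of the 10 genes rose, Slc1a3, Aldoc and Glul, and the other 7 did not pass the test (edgeR quasi-likelihood test, Benjamini-Hochberg adjusted p under 0.05 over the 17623 genes). Of all genes tested, 18.8% were called higher and 15.3% lower in this comparison. The fold change was above 0 on the log2 scale for 9 of the 10 genes, with a median of 0.44, against a median of 0.02 and 50.9% above 0 over all genes tested. In Gli1Null NSCs edgeR called 0 of the 10 genes, with 4 at an unadjusted p under 0.05, while DESeq2 called 1 (Slc1a3) and limma with library quality weights called 7. Of all genes tested there, edgeR called 3.37% higher and 0.25% lower (638 genes), while DESeq2 called 1370 and limma 4634 in either direction. At an unadjusted p under 0.05 edgeR had 3188 of the 17623 genes in this comparison. The fold change in Gli1Null NSCs was above 0 for all 10 genes with a median of 0.38, against -0.02 over all genes tested. In bulk RNA a larger share of cells of a type and more RNA per cell cannot be told apart, and this holds for every difference below.

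**Figure D1:**
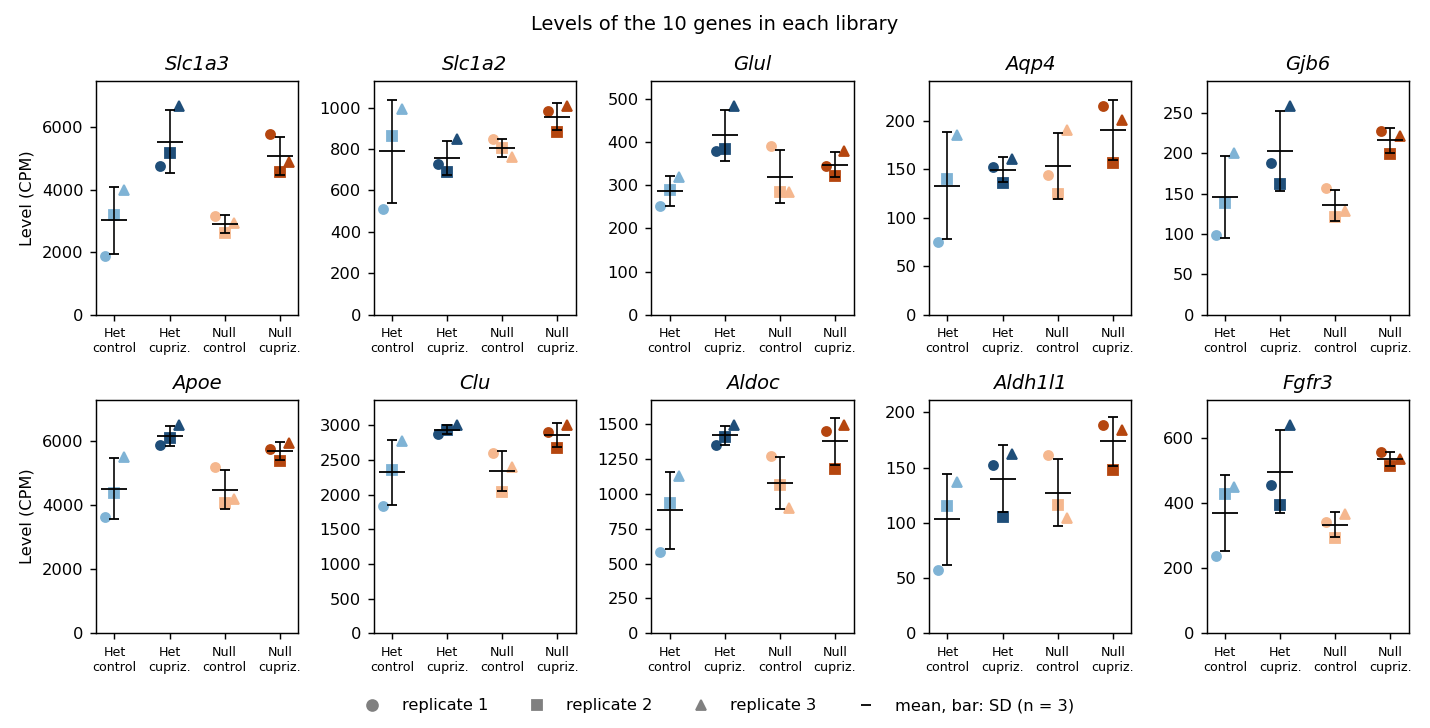
Level of each of the 10 genes in CPM (vertical axes, linear, from 0) in every library of the 4 groups. Symbols mark replicates 1, 2 and 3, and black marks give the mean with its SD (n = 3). The cuprizone libraries of Slc1a3 lie above the control libraries in both genotypes, at 4590 to 6685 against 1882 to 4008 CPM, while Slc1a2 overlaps between the diets in Gli1Het NSCs.

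Of the 3 genes of glutamate handling, Slc1a3 and Glul rose in Gli1Het NSCs and Slc1a2 did not pass the test. Slc1a3 encodes GLAST, the glutamate transporter typical of radial glia and SVZ stem cells. In Gli1Het NSCs it was at 1882, 3204 and 4008 CPM on the control diet and at 4772, 5173 and 6685 CPM on cuprizone. Gli1Null NSCs had 3172, 2605 and 2932 CPM on the control diet and 5779, 4590 and 4888 CPM on cuprizone. The groups did not overlap in either genotype, and the lowest value of all belonged to Gli1Het control replicate 1. Slc1a3 rose 1.82-fold in Gli1Het NSCs (log2 fold change 0.86, SE 0.242, edgeR adjusted p = 0.0199). The change in Gli1Null NSCs was as large, 1.79-fold (log2 0.84, SE 0.242), but its edgeR adjusted p was 0.0843. Without Gli1Het control replicate 1 the log2 fold change of Slc1a3 in Gli1Het NSCs was 0.59 (edgeR adjusted p = 0.0498), and when the library labelled Gli1Het cuprizone replicate 2 was left out, 0.91 (edgeR adjusted p = 0.0209).

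Slc1a2 encodes GLT-1, the main glutamate transporter of mature parenchymal astrocytes. It was at 512.6, 861 and 993 CPM in Gli1Het control NSCs and at 728, 691 and 846 CPM in Gli1Het cuprizone NSCs. Gli1Null NSCs had 848, 805 and 763 CPM on the control diet and 982, 882 and 1007 CPM on cuprizone. The diets overlapped in Gli1Het NSCs and did not in Gli1Null NSCs, where every cuprizone library was above every control library. The log2 fold change was -0.07 in Gli1Het (SE 0.199, 95% interval -0.51 to 0.36) and 0.28 in Gli1Null NSCs (SE 0.199, 95% interval -0.16 to 0.71), and neither passed the test.

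The 2 transporters stood in a different proportion in each diet. The ratio of Slc1a3 CPM to Slc1a2 CPM was 3.67, 3.72 and 4.04 in Gli1Het control and 3.74, 3.24 and 3.84 in Gli1Null control NSCs. On cuprizone it was 6.56, 7.49 and 7.90 in Gli1Het and 5.89, 5.21 and 4.86 in Gli1Null NSCs. All 6 cuprizone libraries lay above all 6 control libraries, and among the cuprizone libraries the 3 of Gli1Het lay above the 3 of Gli1Null. Gli1Het control replicate 1, which was low for both transporters, had a ratio within the range of the other control libraries. The ratio was formed after the values had been seen and is given as a description, without a test.

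**Figure D2:**
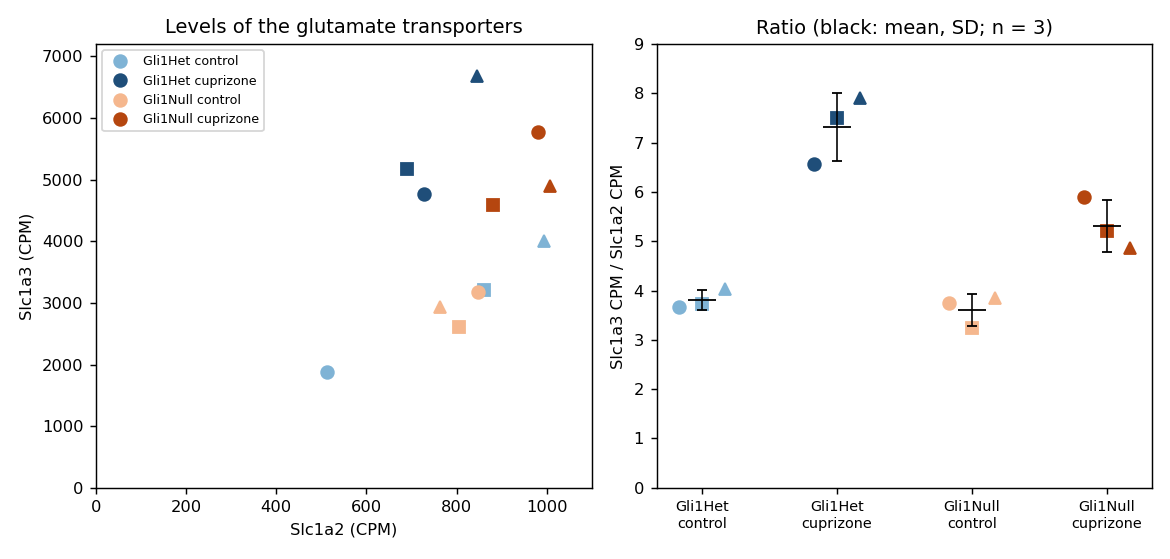
Left, Slc1a3 against Slc1a2 in CPM, 1 point per library, both axes linear and from 0. Right, the ratio of the 2 levels by group, with the mean and SD (n = 3) in black and the same replicate symbols as in the plot of levels. The control libraries lie between 3.24 and 4.04 and the cuprizone libraries between 4.86 and 7.90.

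The sequences before the start sites of these transporters and of Aldoc are shown as examples of genes that rose (Slc1a3 and Aldoc) and that did not pass the test (Slc1a2) in Gli1Het NSCs. They are RefSeq windows on GRCm38.p6 from 250 bases before to 50 bases after an annotated start. Windows of 8 of the 10 genes (12 windows) were used. There was no entry for Clu, and Aqp4 was left out of the search for windows. The windows are chr15:8710758-8711057 on the minus strand for Slc1a3, chr2:102706188-102706487 on the plus strand for Slc1a2, and chr11:78322823-78323122 and chr11:78323948-78324247 on the plus strand for the first and the second start of Aldoc. The Slc1a2 window belongs to a start inside the GENCODE gene model, which begins further upstream at position 102658659. Capitals mark matches on either strand to the STAT motif TTCNNNGAA in Slc1a3 and in the second Aldoc window, and to the NFI motif TTGGCA in the first Aldoc window.
Slc1a3: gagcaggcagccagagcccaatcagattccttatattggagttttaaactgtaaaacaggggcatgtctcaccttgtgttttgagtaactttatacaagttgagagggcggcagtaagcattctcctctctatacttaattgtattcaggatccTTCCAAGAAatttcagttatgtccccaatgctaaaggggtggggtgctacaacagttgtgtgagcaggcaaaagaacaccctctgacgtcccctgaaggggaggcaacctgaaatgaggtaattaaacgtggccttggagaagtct
Slc1a2: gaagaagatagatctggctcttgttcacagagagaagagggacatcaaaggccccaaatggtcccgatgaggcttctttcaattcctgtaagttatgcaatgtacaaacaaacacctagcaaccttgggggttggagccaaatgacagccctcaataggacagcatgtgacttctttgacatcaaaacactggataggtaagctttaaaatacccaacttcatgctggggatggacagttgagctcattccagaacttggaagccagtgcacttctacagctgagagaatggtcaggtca
Aldoc first start: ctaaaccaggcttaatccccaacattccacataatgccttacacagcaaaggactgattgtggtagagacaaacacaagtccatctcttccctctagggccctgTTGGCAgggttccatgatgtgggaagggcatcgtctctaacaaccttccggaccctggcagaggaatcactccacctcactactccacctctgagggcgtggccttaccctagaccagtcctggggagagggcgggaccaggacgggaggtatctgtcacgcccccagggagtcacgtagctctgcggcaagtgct
Aldoc second start: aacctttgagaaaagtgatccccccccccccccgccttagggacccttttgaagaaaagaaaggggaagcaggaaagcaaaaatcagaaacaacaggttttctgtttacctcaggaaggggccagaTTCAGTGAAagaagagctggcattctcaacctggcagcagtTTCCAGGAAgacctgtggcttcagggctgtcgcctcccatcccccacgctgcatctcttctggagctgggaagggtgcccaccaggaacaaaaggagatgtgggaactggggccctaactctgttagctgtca
The GLI motif GACCACCCA was in 0 of the 12 windows and in 0.253% of the 32851 windows of the whole table. A STAT match was in 2 of the 12 windows, 1 of Slc1a3 and 1 of Aldoc, against 8.30% of all windows. An NFI match was in 2 of the 12 windows, 1 of Aldoc and 1 of Apoe, against 14.1% of all windows. The Slc1a2 window held none of the 3 motifs, and neither did that of Glul, which rose in Gli1Het NSCs like Slc1a3 and Aldoc. The motifs do not overlap one another in these windows, and a match describes letters only.

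Glul encodes glutamine synthetase, which turns the glutamate taken up by astrocytes into glutamine. It was at 251, 288 and 320 CPM in Gli1Het control and at 379, 384 and 483 CPM in Gli1Het cuprizone NSCs, without overlap. In Gli1Null NSCs it was at 390, 284 and 285 CPM on the control diet and at 344, 321 and 379 CPM on cuprizone, and the highest value belonged to a control library. Glul rose 1.44-fold in Gli1Het NSCs (log2 0.53, SE 0.162, edgeR adjusted p = 0.0285), and the log2 fold change in Gli1Null NSCs was 0.15 (SE 0.162). The difference between these 2 changes was 0.38 (SE 0.228, 95% interval -0.12 to 0.87) and did not pass the test of the interaction (edgeR adjusted p = 0.569).

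Among the other genes of glutamate and glutamine handling, 7 of 17 tested rose in Gli1Het NSCs and 5 of 17 in Gli1Null NSCs, and the others did not pass. Leaving out single libraries moved these counts between 6 and 8 and between 4 and 7. The genes with the smallest adjusted p were transporters and an enzyme of amino acid supply rather than of glutamate uptake. Slc7a11, the cystine-glutamate exchanger, rose from 44.8 ± 10.8 to 287.5 ± 44.8 CPM in Gli1Het NSCs (SD, n = 3; log2 2.67, SE 0.205) and from 42.4 ± 4.20 to 257 ± 46.5 CPM in Gli1Null NSCs (log2 2.63, SE 0.204). Asns, asparagine synthetase, rose with a log2 fold change of 2.33 in Gli1Het and 2.42 in Gli1Null NSCs. The third was Slc1a5, a neutral amino acid transporter of the same gene family as GLAST, in Gli1Het NSCs (log2 2.74, SE 0.297) and its relative Slc1a4 in Gli1Null NSCs (log2 1.71, SE 0.209). Each of these log2 fold changes was above that of Slc1a3, without a test of the difference.

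Aqp4, the water channel of astrocyte endfeet, and Gjb6, a connexin of astrocyte gap junctions, did not pass the test in either genotype. Aqp4 was at 75.0, 140 and 185 CPM in Gli1Het control and at 152, 136 and 161 CPM in Gli1Het cuprizone NSCs. In Gli1Null NSCs it was at 144, 124 and 191 CPM on the control diet and at 215, 156.5 and 201 CPM on cuprizone. The diets overlapped in both genotypes, and the log2 fold changes were 0.16 (SE 0.270) and 0.35 (SE 0.270). Gjb6 was at 99.4, 138 and 200.0 CPM in Gli1Het control and at 188, 162.5 and 259 CPM in Gli1Het cuprizone NSCs, which overlap. The Gli1Null libraries had 157, 121 and 129 CPM on the control diet and 228, 199 and 222 CPM on cuprizone, which do not. Its log2 fold change was 0.47 (SE 0.235, edgeR adjusted p = 0.138) in Gli1Het and 0.70 (SE 0.235, edgeR adjusted p = 0.136) in Gli1Null NSCs.

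Of the other genes of water, potassium and gap junction handling, 7 of 18 tested rose in Gli1Het NSCs and 5 of 18 in Gli1Null NSCs. Without single libraries the counts were 5 to 7 and 2 to 6. Gjb2, another connexin of astrocytes, rose in both genotypes, from 10.1 ± 4.45 to 28.7 ± 2.60 CPM in Gli1Het (log2 1.50, SE 0.271) and from 9.38 ± 1.96 to 29.5 ± 1.42 CPM in Gli1Null NSCs (log2 1.68, SE 0.270). Hepacam, an astrocyte adhesion molecule that binds the membrane protein Mlc1, rose with log2 fold changes of 0.97 in Gli1Het and 0.85 in Gli1Null NSCs. Dtna, a part of the dystrophin complex that holds Aqp4 at endfeet, rose in Gli1Het NSCs (log2 1.02, SE 0.173), whereas Aqp4 itself did not pass the test.

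Apoe and Clu, the lipid-carrying apolipoproteins of astrocytes, were the most abundant of the 10 genes per length. Apoe was at 3628, 4392 and 5514 CPM in Gli1Het control and at 5895, 6089 and 6517 CPM in Gli1Het cuprizone NSCs. In Gli1Null NSCs it was at 5181, 4081 and 4182 CPM on the control diet and at 5745, 5387 and 5952 CPM on cuprizone. The diets did not overlap in either genotype. The log2 fold change of Apoe was 0.44 in Gli1Het NSCs (SE 0.164, edgeR adjusted p = 0.0553) and 0.37 in Gli1Null NSCs (SE 0.164, edgeR adjusted p = 0.255). DESeq2 called Apoe higher in Gli1Het NSCs (DESeq2 adjusted p = 0.0265).

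Clu, or clusterin, was at 1838, 2359 and 2772 CPM in Gli1Het control and at 2875, 2928 and 3007 CPM in Gli1Het cuprizone NSCs. The Gli1Null libraries had 2608, 2039 and 2395 CPM on the control diet and 2912, 2671 and 3013 CPM on cuprizone. All cuprizone libraries were above all control libraries of the same genotype, by small margins. The log2 fold changes, 0.33 and 0.32 (both SE 0.158), did not pass the test. Among the other genes of lipoprotein and cholesterol transport, 6 of 22 rose and 1 fell in Gli1Het NSCs, and 1 of 22, Lrp2, was called in Gli1Null NSCs, where the count without single libraries was 0 to 2. Lrp2 was no longer called without any 1 of the Gli1Null libraries but cuprizone replicate 3. The rising genes included Abca1, which loads cholesterol onto Apoe (log2 1.21, SE 0.245), and Nr1h3, the liver X receptor that controls Abca1 and Apoe (log2 0.99, SE 0.163), both in Gli1Het NSCs. Without Gli1Het control replicate 2 the count of rising genes of this list in Gli1Het NSCs was 3.

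Aldoc encodes aldolase C, the brain form of the glycolytic enzyme. It was at 582.5, 935 and 1129 CPM in Gli1Het control and at 1355, 1411 and 1494 CPM in Gli1Het cuprizone NSCs, without overlap. In Gli1Null NSCs it was at 1275, 1067 and 903 CPM on the control diet and at 1452, 1180 and 1498 CPM on cuprizone, where the lowest cuprizone library lay below the highest control library. Aldoc rose 1.60-fold in Gli1Het NSCs (log2 0.68, SE 0.217, edgeR adjusted p = 0.0327), and its log2 fold change in Gli1Null NSCs was 0.38 (SE 0.216, edgeR adjusted p = 0.384). Without Gli1Het control replicate 1, the library with the lowest Aldoc, the log2 fold change in Gli1Het NSCs was 0.43 (edgeR adjusted p = 0.0963).

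Aldh1l1 encodes formyltetrahydrofolate dehydrogenase, an enzyme of folate metabolism used as a pan-astrocyte marker. It ranged from 57.4 to 137 CPM in Gli1Het control, from 105 to 162 CPM in Gli1Het cuprizone, from 104 to 161 CPM in Gli1Null control and from 148 to 189 CPM in Gli1Null cuprizone NSCs. The diets overlapped in both genotypes, and the log2 fold changes were 0.43 (SE 0.285) and 0.48 (SE 0.285). Of the other genes of folate metabolism and glycolysis near aldolase, 7 of 15 rose and 1 fell in Gli1Het NSCs, and 4 of 15 rose in Gli1Null NSCs. Aldoa, the widely expressed aldolase, rose from 334 ± 44.2 to 776 ± 245 CPM in Gli1Het NSCs (log2 1.21, SE 0.194), against 0.68 for Aldoc. Pfkfb3, which makes the activator of phosphofructokinase, rose in both genotypes (log2 1.37 and 0.96), and the mitochondrial folate enzymes Shmt2 and Mthfd1l rose in Gli1Null NSCs (log2 1.07 for each). Without single libraries the count of rising genes was 4 to 9 in Gli1Het and 0 to 7 in Gli1Null NSCs.

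Fgfr3 encodes a fibroblast growth factor receptor of radial glia and astrocytes. It was at 237, 427 and 449 CPM in Gli1Het control and at 455, 395 and 642 CPM in Gli1Het cuprizone NSCs. Gli1Null NSCs had 341, 294 and 368 CPM on the control diet and 558.5, 513.5 and 537 CPM on cuprizone. The diets overlapped in Gli1Het NSCs through the library labelled replicate 2, the lowest of the cuprizone group, and were well apart in Gli1Null NSCs. The log2 fold change was 0.42 in Gli1Het NSCs (SE 0.233, edgeR adjusted p = 0.182) and 0.71 in Gli1Null NSCs (SE 0.234, edgeR adjusted p = 0.130), and neither passed the test. Other genes of FGF receptor signalling rose in 9 of 20 cases and fell in 1 in Gli1Het NSCs, and rose in 3 of 20 in Gli1Null NSCs, with counts of 6 to 10 and 1 to 7 without single libraries. The targets Etv5 and Dusp6, which FGF signalling induces through ERK, rose in both genotypes, Etv5 with log2 fold changes of 1.47 and 1.21 and Dusp6 with 1.73 and 1.02. Fgfr1, the receptor paralog, rose in Gli1Null NSCs (log2 0.88, SE 0.216), from 106 ± 10.0 to 192 ± 11.7 CPM, and was also higher in Gli1Het NSCs (log2 1.42, SE 0.219).

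**Figure D3:**
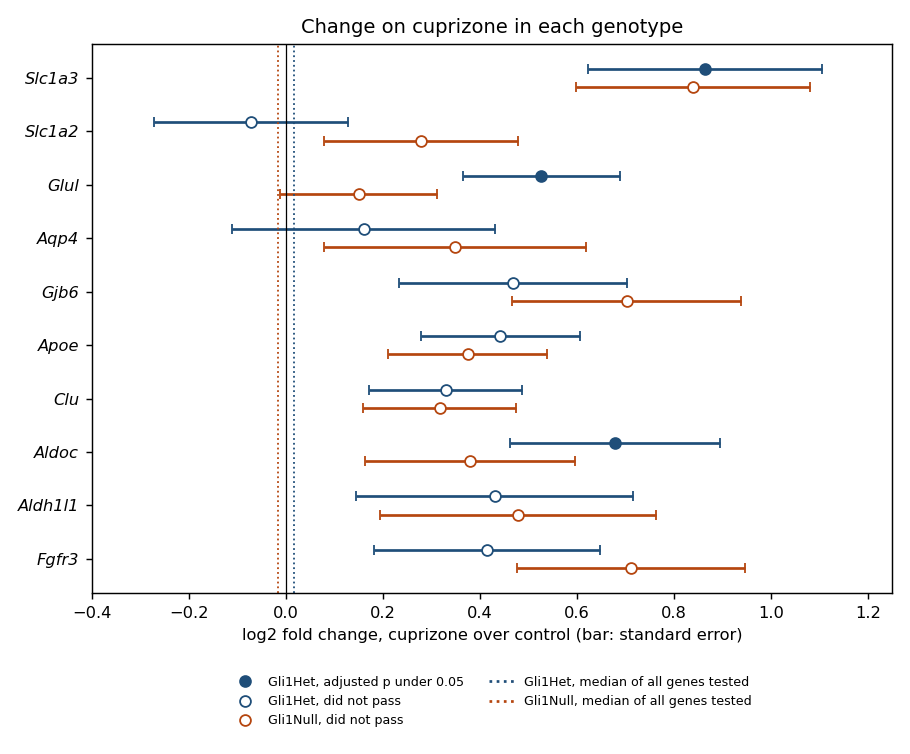
Log2 fold change of each gene on cuprizone over control (horizontal axis) in Gli1Het (blue) and Gli1Null (orange) NSCs, with its standard error. Filled points passed an adjusted p of 0.05 in edgeR, and dotted lines mark the medians of all genes tested, 0.02 and -0.02. All points but that of Slc1a2 in Gli1Het NSCs, at -0.07, lie to the right of 0.

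For 5 of the 10 genes in Gli1Het NSCs and 6 in Gli1Null NSCs the diets did not overlap. In Gli1Het NSCs the genes were Aldoc, Slc1a3, Glul, Apoe and Clu, where 21.7% of all genes tested lay wholly higher on cuprizone. In Gli1Null NSCs they were Slc1a3, Slc1a2, Gjb6, Apoe, Clu and Fgfr3, against 19.8% of all genes tested. Slc1a3, Apoe and Clu were on both lists. The SD of the control libraries was larger in Gli1Het than in Gli1Null NSCs for 9 of the 10 genes, all but Glul, for example 117 against 37.7 CPM for Fgfr3 and 248 against 42.1 CPM for Slc1a2. When edgeR was fitted to the 2 diets of 1 genotype alone, 0 of the 10 genes were called in Gli1Het NSCs and 6, those without overlap, in Gli1Null NSCs. That fit called 961 of all genes in Gli1Het and 4193 in Gli1Null NSCs, against 5995 and 638 in the model of all groups. Summed over the 10 genes, the share of all counts was 0.916%, 1.29% and 1.57% in Gli1Het control, 1.70%, 1.75% and 2.03% in Gli1Het cuprizone, 1.43%, 1.15% and 1.23% in Gli1Null control and 1.84%, 1.61% and 1.79% in Gli1Null cuprizone NSCs. The share was thus higher in all 6 cuprizone than in all 6 control libraries.

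The calls in Gli1Het NSCs rested on single libraries. Without Gli1Het control replicate 2 or Gli1Het cuprizone replicate 3 edgeR called 0 of the 10 genes, without Gli1Het control replicate 1 or Gli1Null cuprizone replicate 1 it called 1, Slc1a3, and without Gli1Het control replicate 3 it called 5, adding Gjb6 and Apoe. Without the library labelled Gli1Het cuprizone replicate 2 the 3 calls remained, Aldoc (log2 0.69), Slc1a3 (0.91) and Glul (0.58). The other 7 genes, not called, then had log2 fold changes from -0.01 (Slc1a2) to 0.61 (Gjb6), with 0.60 for Aldh1l1 and 0.56 for Fgfr3 (edgeR adjusted p = 0.0911). In Gli1Null NSCs, leaving out Gli1Het control replicate 1 or that library, which enter through the shared estimate of the spread, gave 2 calls, Slc1a3 and Fgfr3.

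The second comparison was between genotypes. In control NSCs the log2 fold changes of Gli1Het over Gli1Null ran from -0.32 (Aldh1l1 and Aldoc) to 0.13 (Fgfr3), all groups overlapped, and 0 of the 10 genes were called by edgeR, DESeq2 or limma, with 0 at an unadjusted p under 0.05 in edgeR. Of all genes tested, 0% were called by edgeR, while 253 were at an unadjusted p under 0.05. The targeted gene Gli1 was thus not called either, at a log2 fold change of 5.38 (SE 0.968). On cuprizone the log2 fold changes of Gli1Het over Gli1Null ran from -0.41 (Aqp4) to 0.20 (Glul). EdgeR and DESeq2 called 0 of the 10 genes, again with 0 at an unadjusted p under 0.05 in edgeR, and limma called 1 (Glul). Of all genes tested, edgeR called 0.0397% (7 genes) and had 4388 at an unadjusted p under 0.05, while DESeq2 called 1701 and limma 6674. Gli1 had a log2 fold change of 3.74 (SE 0.893) and did not pass here either (edgeR adjusted p = 0.0681).

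Slc1a2 and Glul did not overlap between the cuprizone groups. The share of all genes tested without overlap was not computed for this comparison, so these separations are given as descriptions only. Slc1a2 was lower in all 3 Gli1Het libraries, at 691 to 846 CPM against 882 to 1007 CPM in Gli1Null NSCs (log2 -0.40, SE 0.199, edgeR adjusted p = 0.229). Glul was higher in all 3 Gli1Het libraries, at 379 to 483 CPM against 321 to 379 CPM (log2 0.20, SE 0.162, edgeR adjusted p = 0.451), and the closest libraries of the 2 groups both round to 379 CPM. When the library labelled Gli1Het cuprizone replicate 2 was left out, these log2 differences were -0.34 for Slc1a2 and 0.25 for Glul, and neither passed the test. For Slc1a3, Apoe and Clu the groups overlapped and the log2 differences were 0.06, 0.06 and -0.02, with 95% intervals of -0.46 to 0.59, -0.30 to 0.41 and -0.37 to 0.32.

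The third comparison was whether cuprizone changed these genes differently in the 2 genotypes. The interaction of genotype and diet called 0 of the 10 genes in edgeR, DESeq2 and limma, with 0 at an unadjusted p under 0.05 in edgeR. Of all genes tested, the interaction called 0% in edgeR (DESeq2 62 genes, limma 2724), with 1591 at an unadjusted p under 0.05 in edgeR. Its values ran from -0.35 for Slc1a2 (SE 0.282, 95% interval -0.96 to 0.26) to 0.38 for Glul. For Slc1a3 it was 0.02 with a 95% interval of -0.72 to 0.77. The intervals of all 10 genes were wide enough to include differences of 0.4 in at least 1 direction, so the design did not resolve differences of that size between the genotypes. Without the library labelled Gli1Het cuprizone replicate 2 the interaction again called 0 of the 10 genes, with values from -0.29 for Slc1a2 to 0.43 for Glul, and 0.07 for Slc1a3.

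Other lists of genes place the 10 genes beside their neighbours. Of 28 other astrocyte genes, 9 rose and 1 fell in Gli1Het NSCs, with a median log2 fold change of 0.42, and 4 rose in Gli1Null NSCs, with a median of 0.51. Sox9, a glial transcription factor, and the receptor gene Gpr37l1 were among those that rose in Gli1Null NSCs (log2 0.59 and 0.96). In Gli1Het NSCs Sox9 was at 494 to 585 CPM on the control diet and, also without overlap, at 739 to 871 CPM on cuprizone. Gfap, the intermediate filament of astrocytes and SVZ stem cells, rose from 102 ± 46.4 to 800.3 ± 429 CPM in Gli1Het NSCs (log2 2.96, SE 0.394), against 0.86 for Slc1a3, the largest value of the 10 genes. In Gli1Null NSCs Gfap was at 85.1 to 105 CPM on the control diet and at 199 to 265 CPM on cuprizone. The summed CPM of the 10 genes and Gli1 was divided by that of the 28 others. The ratio was 0.958 to 1.01 in Gli1Het control, 0.889 to 0.999 in Gli1Null control and 0.960 to 0.989 in Gli1Null cuprizone NSCs. In Gli1Het cuprizone NSCs it was 1.10, 1.30 and 1.13. The highest ratio belonged to the library labelled replicate 2.

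Of 23 other genes of quiescent stem cells, 12 rose and 3 fell in Gli1Het NSCs and 8 rose in Gli1Null NSCs, with medians of 0.55 and 0.46. Lrig1, a brake on growth factor receptors that marks quiescent stem cells, rose from 59.4 ± 14.2 to 181 ± 22.4 CPM in Gli1Het (log2 1.59, SE 0.180) and from 54.9 ± 8.25 to 143 ± 9.43 CPM in Gli1Null NSCs (log2 1.41, SE 0.179). Ntrk2, a neurotrophin receptor of astrocytes and quiescent stem cells, rose with log2 fold changes of 0.91 and 0.67. Leaving out single libraries, the rising genes numbered 9 to 12 of the quiescent and 6 to 10 of the astrocyte list in Gli1Het NSCs, and 1 to 9 and 0 to 9 in Gli1Null NSCs, where leaving out any of the 6 Gli1Null libraries, Gli1Het control replicate 2 or Gli1Het cuprizone replicate 3 lowered both counts by over 1.5 times.

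Markers of other cells of the sort moved at the same time. Of 16 genes of activated stem cells and progenitors, 11 fell and 1, Olig2, rose in Gli1Het NSCs, and of 16 neuroblast markers 11 fell. Without single libraries 1 to 13 and 2 to 16 genes of these lists fell, with the lowest counts without Gli1Het control replicate 2 and without Gli1Het cuprizone replicate 3. The summed neuroblast markers were at 5295 to 6963 CPM in Gli1Het control, 859 to 4068 CPM in Gli1Het cuprizone, 5659 to 6034 CPM in Gli1Null control and 3921 to 4141 CPM in Gli1Null cuprizone NSCs, and none of these markers was at 0 in any library. The lowest sum belonged to the library labelled Gli1Het cuprizone replicate 2, and the 10 genes had a median log2 level of 0.27 there, against 0.30 to 0.69 in the other 5 cuprizone libraries. Of 14 microglia markers 7 rose in Gli1Het NSCs, at summed levels of 164 to 225 CPM against 74.5 to 96.5 CPM, and of 12 ependymal markers 7 rose and 1 fell, at 262 to 644 against 85.8 to 139 CPM. In Gli1Null cuprizone NSCs the sums were 100.2 to 119 CPM for microglia and 170 to 189 CPM for ependymal markers, against 70.1 to 97.0 and 101 to 113 CPM on the control diet. Aif1, a defining marker of microglia, was at 0 in 4 of the 12 libraries, Gli1Het cuprizone replicate 3 among them, and no ependymal marker was at 0. The part of these cell types in the levels of the 10 genes was not tested.

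**Figure D4:**
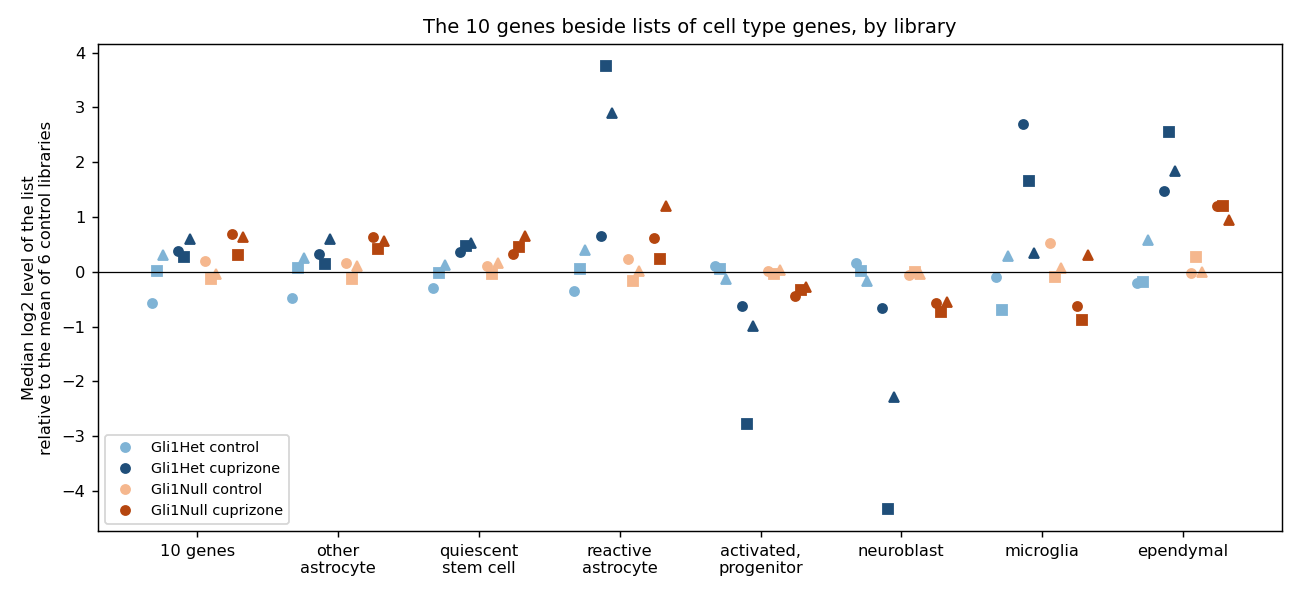
Median log2 level of the genes of each list in each library, set against the mean of the 6 control libraries (vertical axis), for the 10 genes and 7 lists of cell type genes. Colours mark the groups and symbols the replicates as in the plot of levels. The 10 genes on cuprizone lie between 0.27 and 0.69, while the neuroblast markers of the Gli1Het cuprizone libraries spread from -4.34 to -0.66.

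Genes of reactive astrocytes, which respond to injury and inflammation, went further than the 10 genes in Gli1Het NSCs. Of 23 tested, 18 rose in Gli1Het NSCs with a median log2 fold change of 2.91. In Gli1Null NSCs 1 was called, Osmr, the oncostatin M receptor, and the median was 0.56. Between the cuprizone groups and in the interaction edgeR called 0 of the 23, with medians of 2.185 and 2.03. Without single libraries the count in Gli1Null NSCs was 0 to 5, and Osmr was no longer called without any 1 of the 6 Gli1Null libraries, Gli1Het control replicate 2 or Gli1Het cuprizone replicate 3. Without Gli1Het control replicate 2 or without the library labelled Gli1Het cuprizone replicate 2 the count in Gli1Het NSCs was 11. Summed over the list, Gli1Het cuprizone NSCs had 847 to 4281 CPM against 421 to 536 CPM on the control diet. Gli1Null cuprizone NSCs had 587 to 593 CPM against 447 to 505 CPM on the control diet. The summed level was highest in the library labelled Gli1Het cuprizone replicate 2. There Fgfr3, Aldh1l1, Aqp4, Gjb6 and Slc1a2 were the lowest of the 3 libraries of its group.

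The 5 genes whose pattern was most like the median of the 10 were sought among 12106 other genes with a mean of at least 5 CPM, by the root mean square difference of log2 levels over the 12 libraries. They were Mmd2 (0.087), Fgfrl1 (0.0903), Tnfaip8 (0.0961), Slc38a3 (0.109) and Cyp2j9 (0.117). Each of the 10 genes lay farther from their own median, from 0.133 for Apoe, the nearest, to 0.277 for Slc1a2 and 0.305 for Slc1a3, the farthest. The 5 were picked for nearness out of 12106 genes and the 10 were not, so this order does not show how alike the 10 genes were. Fgfrl1 encodes a receptor that binds FGF, and Slc38a3 a glutamine transporter of astrocytes. None of the 5 passed the test on cuprizone in edgeR, with adjusted p-values of 0.0675 to 0.232 in Gli1Het and 0.157 to 0.347 in Gli1Null NSCs.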

How the data were processed

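Read counts per gene were measured in 12 libraries, 3 per group, of sorted SVZ NSCs, made with SMART-Seq V4 and Nextera XT. According to the submitters' processing notes, the authors used FastQC 0.11.5, TopHat2 2.1.1 on mm10, HTSeq 0.11.1 and DESeq2 1.12. No source used here gives the Ensembl release or the strand setting, so genes that overlap others (Slc1a3, Slc1a2, Aqp4, Glul, Aldh1l1, Fgfr3) may share reads. The authors deposited raw counts, in cells of another kind that join a gene ID and a count, and a signal per gene, which is each count over the size factor of its library. The ID in each cell was used, since 33998 lines began with another gene. Multiplied back, 100% of the deposited signal values were whole within 0.01 and equal to the counts, so the count test on them gives the same calls. Reads matched to no feature (54.5% to 58.4%) were left out of library sizes.

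EdgeR 4.0.16 in R 4.3.3 fitted 1 quasi-likelihood model of 4 groups after TMM scaling and a filter at 10 counts, adjusted by Benjamini-Hochberg at 0.05. An SE was computed by dividing the absolute log2 fold change by the root of F, and 95% intervals use the t distribution of the test. CPM use the total in genes. Alternatives were DESeq2 1.42.0, its size factors, no filter, the replicate number as a block, limma 3.58.1 voom weighting libraries by quality, the groups compared alone, a covariate separating sample label numbers below 10, and each library left out. Same-numbered libraries deviated together (r over 0.1) in 2 of 18 pairs, so numbers were not taken as pairs. The test was checked on simulated counts. The 10 genes, the lists and the motifs were chosen with earlier results of these data known. Named were the 10 genes, in each list and comparison described up to 3 called genes of smallest adjusted p, and the 5 nearest genes, except for 1 result that is not reported here. The libraries came from separate pools of mice.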

Additional observations from a re-analysis of the deposited data

How the results depend on the processing

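Of the 990 values of the 10 genes under 20 alternatives, 938 kept their direction and call, 16 lost a call, 29 gained one and 7 changed sign. A sign change within 1 SE of 0 in both fits was counted as no direction (53 of the 938). In Gli1Het NSCs the diets gave 3 calls in the model of all groups, 8 in limma voom, 0 with the groups compared alone and 0 to 5 without single libraries. In Gli1Null NSCs, with 0 calls in the model of all groups, the counts were 1 in DESeq2, 7 in limma voom, 1 with the term for label numbers, 6 with the groups compared alone and 0 to 2 without single libraries. Between the cuprizone groups limma voom gave 1. With the replicate block there were 3 calls in Gli1Het and 0 in Gli1Null NSCs, as in the model without it. Sign changes concerned the genotypes: on cuprizone Slc1a3 at -0.34 with the label term and Gjb6 at 0.15 and Fgfr3 at 0.15 in limma voom, on the control diet Slc1a3 at -0.42 and Fgfr3 at -0.26 with the label term and Slc1a2 at 0.19 without Gli1Het control replicate 1 (-0.24 to 0.19 without single libraries), and the interaction of Slc1a3 at -0.26 without that library (-0.26 to 0.24). None of these was called, and their cause was not tested. All libraries with label numbers below 10 were Gli1Het, replicates 2 and 3 of each diet. With the label term the comparisons of genotypes thus lean on replicate 1 of the Gli1Het groups. Over all genes the diet calls were 5995 (961 to 10013 over the alternatives) in Gli1Het and 638 (140 to 4634) in Gli1Null NSCs, those between cuprizone groups 7 (0 to 6674; DESeq2 1701), those of the interaction 0 (0 to 2724; edgeR unadjusted 1591, DESeq2 62) and those between control groups 0 (0 to 1; edgeR unadjusted 253, DESeq2 1). The block gave 400 in Gli1Null NSCs. Without composition scaling, added after the data were seen, the calls among the 10 genes were 3 and 0. With 3 libraries a group, the smallest change called among the 10 genes in the model of all groups was 0.53, that of Glul in Gli1Het NSCs. In Gli1Null NSCs a change of 0.84, that of Slc1a3, did not pass. The size of change that the design could detect was not computed.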
